A study of Homo sapiens with 38 samples.

Results

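The 10 genes described here encode the machinery of fatty acid synthesis and desaturation: SREBF1, INSIG1, ACLY, ACACA, FASN, SCD, ELOVL6, FADS1, FADS2 and ACSS2. They were chosen by symbol, and all 10 were listed in each of the 15 deposited tables, which share 11981 genes of 24463 listed in any table. RNA sequencing of polyadenylated transcripts was done on 38 samples from 3 established lines of human breast cancer cells (T47D, T47D-TR, BT-549), all grown in RPMI1640 medium with 10% serum and 8 ug/ml insulin. For 48 h, each line received 0.125% DMSO as vehicle or 2.5 uM of MS177 (a PROTAC, a molecule made to have a protein degraded, here the histone methyltransferase EZH2), MS177-N1 or MS177-N2 (its negative controls) or C24 (an inhibitor of EZH2's enzyme activity). For 30 h, T47D-TR received 0.05% DMSO or 2.5 uM of MS8815 (a second EZH2 PROTAC), MS8815-N (its negative control) or EPZ-6438 (an EZH2 inhibitor). Each of the 19 groups had 2 samples. The labels do not say whether these were separate cultures, so p-values measure the spread between samples that may be technical. The labels do not expand the name T47D-TR.

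Cells build fatty acids from acetyl-CoA in the cytosol. ACLY makes it from citrate and ACSS2 from acetate, ACACA turns it into malonyl-CoA, FASN assembles palmitate, and ELOVL6 lengthens the chain. SCD then makes monounsaturated fatty acids, whereas FADS1 and FADS2 act on polyunsaturated ones. Transcription of these genes is driven by SREBP transcription factors, made as precursors in the endoplasmic reticulum membrane by SREBF1 and SREBF2. INSIG1 holds the precursors there when sterols are plentiful, and is itself a transcriptional target of SREBPs. Many breast cancer cells make much of their own fatty acid.

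SREBPs act on promoters together with NF-Y, which binds CCAAT boxes, and Sp1, which binds GC boxes. The RefSeq promoter table (GRCh38.p14) held 9 of the 10 genes; FASN was not among them. In the 250 bases before the listed start, on both strands, CCAAT was found in 4 of these 9 genes against 32% of all 35116 promoters, and the GC box GGGCGG in 8 of 9 against 42.6%. The E-box CACGTG was found in 1 of 9 (INSIG1) against 6.34%. The sterol element TCACNCCAC was in 0 of 9 against 0.883% and the DR4 repeat, known from liver X receptor sites, in 0 of 9 against 0.0142%. Overlapping matches were counted, so motifs can share bases. Sequences with CCAAT in capitals (ATTGG where it lies on the other strand) are shown for 3 genes that MS177 lowered together in T47D-TR (below), each cut to bases outside every annotated exon of its gene.
INSIG1, chr7:155297628-155297775, plus strand: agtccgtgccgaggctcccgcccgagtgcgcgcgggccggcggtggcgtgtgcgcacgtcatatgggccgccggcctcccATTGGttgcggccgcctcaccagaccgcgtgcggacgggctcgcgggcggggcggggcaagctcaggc
ACLY, chr17:41919023-41919201, minus strand: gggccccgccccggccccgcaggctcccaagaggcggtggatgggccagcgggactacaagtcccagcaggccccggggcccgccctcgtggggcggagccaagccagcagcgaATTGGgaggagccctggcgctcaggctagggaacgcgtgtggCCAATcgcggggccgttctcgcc
SCD, chr10:100346983-100347123, plus strand: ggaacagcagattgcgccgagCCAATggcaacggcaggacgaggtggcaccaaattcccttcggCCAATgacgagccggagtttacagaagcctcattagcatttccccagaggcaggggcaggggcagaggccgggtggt
For ACLY the RefSeq start lies inside the span of the gene in GENCODE, so the stretch is intronic there. The windows of ACACA, ELOVL6, FADS1, FADS2 and ACSS2 also lie inside the GENCODE spans of their genes. The motif counts above thus include letters within annotated genes. The E-box of INSIG1 lies 55 bases before the RefSeq start, past the stretch shown. A match is a description of letters and says nothing about binding in these cells.

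On GRCh38 (hg38 is the build in the submitters' notes), 4 of the 10 genes lie on chromosome 17: SREBF1 at chr17:17810399-17837002, ACACA at chr17:37084988-37406818, ACLY at chr17:41866908-41930542 and FASN at chr17:82078333-82098332, all on the minus strand. INSIG1 spans chr7:155297776-155310235, SCD chr10:100347124-100364834 and ACSS2 chr20:34872146-34927962 on the plus strand, and ELOVL6 chr4:110045846-110199199 on the minus strand. The desaturase genes FADS1 (chr11:61799625-61829318, minus strand) and FADS2 (chr11:61792980-61867354, plus strand) overlap in the GENCODE annotation. Whether reads were counted by strand is not stated in the sources used here, so some reads of either could have been given to the other. FEN1, a protein-coding gene on the same strand, also overlaps FADS2. On the other strand, RAI1 overlaps SREBF1, C17orf78 overlaps ACACA and GGT7 overlaps ACSS2. The part of these overlaps in the counts was not tested.

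The deposited values were on a log2 scale made separately for each table. Levels below are normalized counts obtained by undoing that scale, with the libraries of 1 line and time set on a common scale through their shared DMSO libraries. Log2 differences from DMSO within a line are on the deposited scale, which compresses differences more at low levels. Folds are ratios of mean normalized counts, so such a log2 difference is not the log2 of its fold. Depth was 32.1 to 49.9 M reads over the listed genes in T47D and BT-549, where whole reads could be recovered, and is unknown in T47D-TR. With DMSO at 48 h, the luminal markers (12 of 12 listed) summed to 526763 to 538301 in T47D and 251007 to 293123 in T47D-TR. The mesenchymal sums there were 3651 to 4007 and 646 to 670.5. In BT-549 the mesenchymal markers (12 of 12 listed) summed to 177513 to 180998 and the luminal ones to 27127 to 29814. A sum can rest on a few abundant genes, and not every listed marker was high: with MS177 in T47D-TR, 11 luminal markers passed the filter on low values. The T47D table of MS177-N1 holds 1 library of that compound, because its other treated column is named for MS177-N2 and equals MS177-N2 replicate 2. Several libraries stood apart. The MS177 libraries of T47D correlated at 0.936 with each other, against 0.995 for the DMSO pair. At 30 h the pair correlations were 0.734 for MS8815-N, whose replicate 2 had 6933 genes at 0, 0.925 for MS8815 and 0.942 for EPZ-6438, against 0.991 to 0.993 for DMSO. In MS8815 replicate 1 a single gene held 12.4% of the total. What part these libraries had in the results was not tested beyond leaving each out. In bulk samples, fewer cells of a kind and less RNA per cell cannot be told apart.

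With DMSO at 48 h, SCD was the highest of the 10 genes in T47D and FASN the next, at 8734 and 6083 normalized counts per kilobase of exon, and ACLY followed at 3893. The other 7 genes lay between 98.1 (FADS2) and 794 (SREBF1). In BT-549, ACLY and SCD were nearly level at 2889 and 2858 per kilobase, with FASN at 1511. FADS2, lowest of the 10 in T47D, came right after these in BT-549 at 1264, and the lowest there was ACSS2 at 86.6. The lines were scaled separately, so ranks within a line can be read here and levels between lines cannot.

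**Figure D1:**
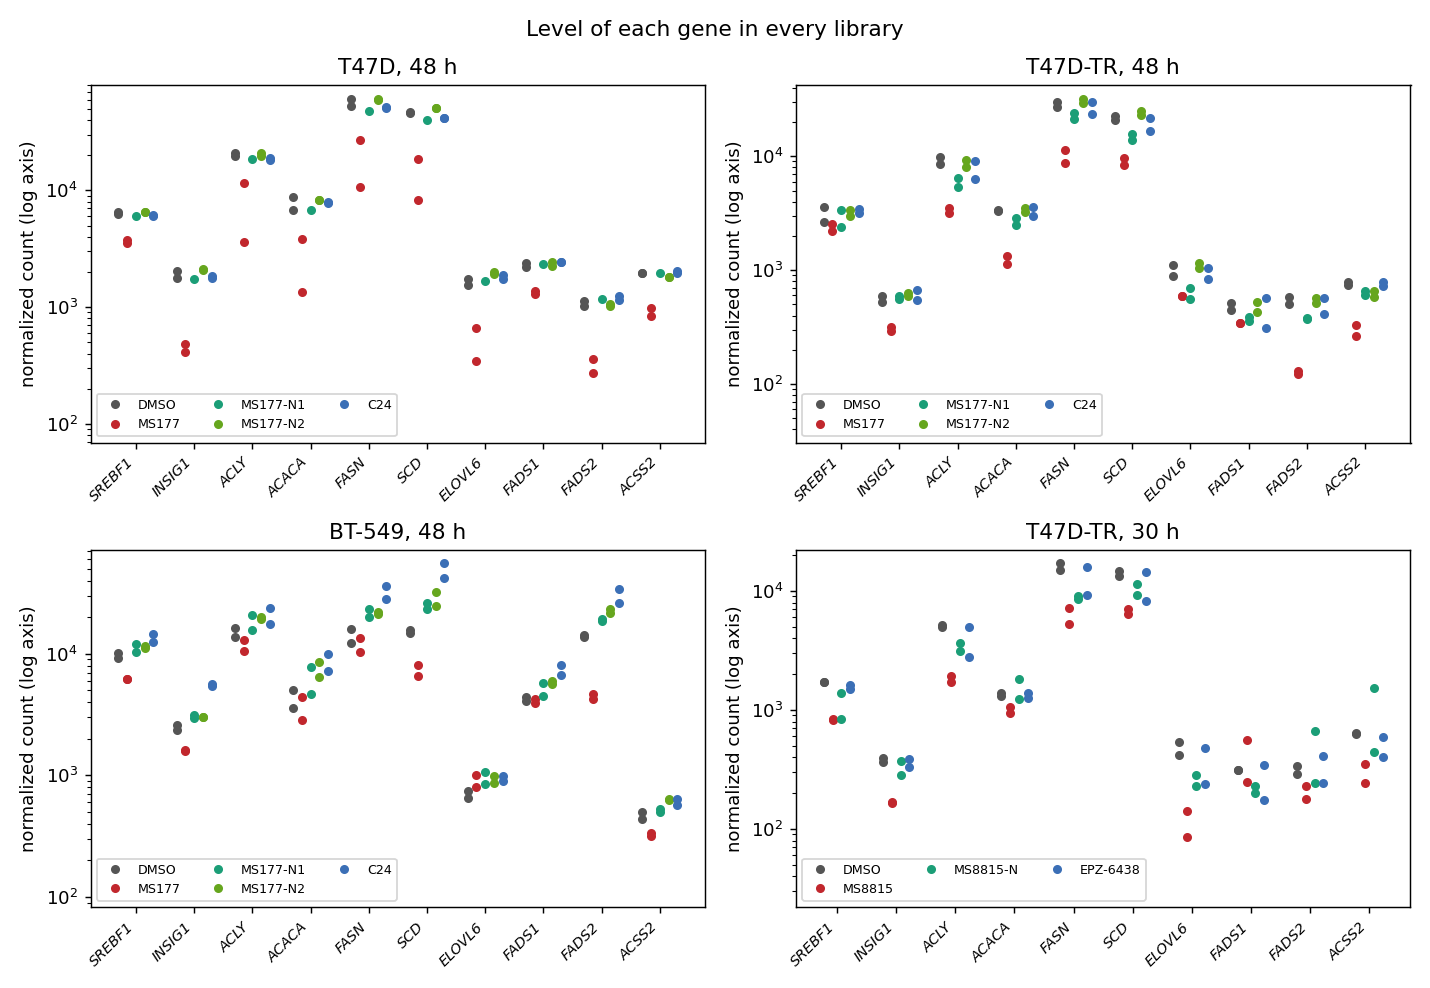
Normalized count of each of the 10 genes in every library, on a log axis, with 1 panel for each line and time and 1 color for each compound; every point is a library. In T47D and T47D-TR at 48 h the MS177 points lie below the DMSO points for all 10 genes, and in BT-549 the C24 points lie above them for all 10.

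In T47D-TR at 48 h, MS177 lowered 9 of the 10 genes, all but SREBF1. All 10 had both MS177 libraries below both DMSO libraries, and how often all genes were so separated was not counted. Of the 10425 genes tested, 31.4% were called lower and 31.1% higher by limma with Benjamini-Hochberg adjustment over all of them. The median difference was -0.92 over the 10 genes and -0.0034 over all genes tested. Without any 1 library, 8 or 9 of the 10 were called. SREBF1 had 2649 and 3615 normalized counts in the DMSO libraries and 2544 and 2200.2 with MS177 (log2 difference -0.34 ± 0.14 (SE), limma adjusted p = 0.0774). INSIG1 went from 592 and 524 to 320.3 and 293, 1.82-fold lower (log2 difference -0.49 ± 0.08 (SE), limma adjusted p = 0.00196). Of the acetyl-CoA suppliers, ACLY was at 8472 and 9842 with DMSO and 3492 and 3207 with MS177, 2.73-fold lower (log2 difference -1.34 ± 0.11 (SE), limma adjusted p = 9.15e-05). The acetate-using ACSS2 was at 749 and 780.3 against 328 and 266, 2.57-fold lower (adjusted p = 0.000256, limma). The chain-building enzymes fell by similar factors, ACACA 2.73-fold (adjusted p = 7.23e-05, limma) and FASN 2.83-fold, from 27148 and 29738 to 11349.8 and 8757 (adjusted p = 0.000224, limma). ELOVL6 was 1.67-fold lower, with 889 and 1106 against 596 and 595. The 3 desaturases spanned the widest range. FADS2 was 4.31-fold lower, at 501 and 582 with DMSO and 122 and 129.6 with MS177, whereas its neighbour FADS1 was 1.41-fold lower at 520.4 and 446 against 342 and 345 (adjusted p = 0.0236, limma). SCD was at 20891 and 22425 against 9716 and 8399, 2.39-fold lower. The summed luminal markers spanned 251007 to 293123 with DMSO and 259665 to 265987 with MS177, while 6 of 11 tested luminal markers were called lower and 3 higher (median -0.35). The summed mesenchymal markers (9 of 12 listed) did not overlap, at 951 to 1195 with MS177 against 646 to 670.5, with 2 of 3 tested called higher and 1 lower. The part of these markers in the result was not tested.

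In T47D, the 2 MS177 libraries lay below both DMSO libraries for all 10 genes, but they differed from each other, and no gene passed the threshold. No gene of the 18146 tested did (0%). An unadjusted p under 0.05 was reached by 9 of the 10, and in the lower direction by 1672 of all genes tested. The means of the 10 were 1.72 to 4.25 times lower than DMSO. How often all genes had both MS177 libraries below DMSO was not counted. INSIG1 had the widest gap, with 1770.0 and 2033 in DMSO against 478 and 416 (4.25-fold lower; log2 difference -2.04 ± 0.27 (SE), limma adjusted p = 0.131). SCD had 47359 and 46308 against 8244 and 18517, with a fold of 3.5 (adjusted p = 0.191, limma). FADS2 had 1132 and 1032 against 272 and 358, and ELOVL6 1553 and 1733 against 345 and 657. MS177 replicate 1 was well under replicate 2 for the most abundant enzymes. FASN had 10797 and 27139.7 against 61147 and 52769 in DMSO, ACLY 3604 and 11499 against 20812 and 19811, and ACACA 1335 and 3814 against 8696 and 6800.2. SREBF1 was nearer to its controls, at 3510.2 and 3724 against 6274 and 6478, as were FADS1 at 1382 and 1302 against 2221 and 2381 and ACSS2 at 837 and 974 against 1969.8 and 1953. When all libraries of T47D shared 1 estimate of the spread, 9 of the 10 were called lower, all but ACLY (adjusted p = 0.0704, limma), against 10% of genes. In the fit of the MS177 and DMSO libraries, the count of 0 was not kept without MS177 replicate 1 or without MS177 replicate 2. The lone library is then assumed to vary like the DMSO pair. The summed luminal markers were 526763 to 538301 in DMSO and 452434 to 942820 in the MS177 libraries (median difference of the list -0.38). The mesenchymal ones (10 of 12 listed) were 3651 to 4007 and 2631 to 3710.1, and the part of either list in the result was not tested.

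**Figure D2:**
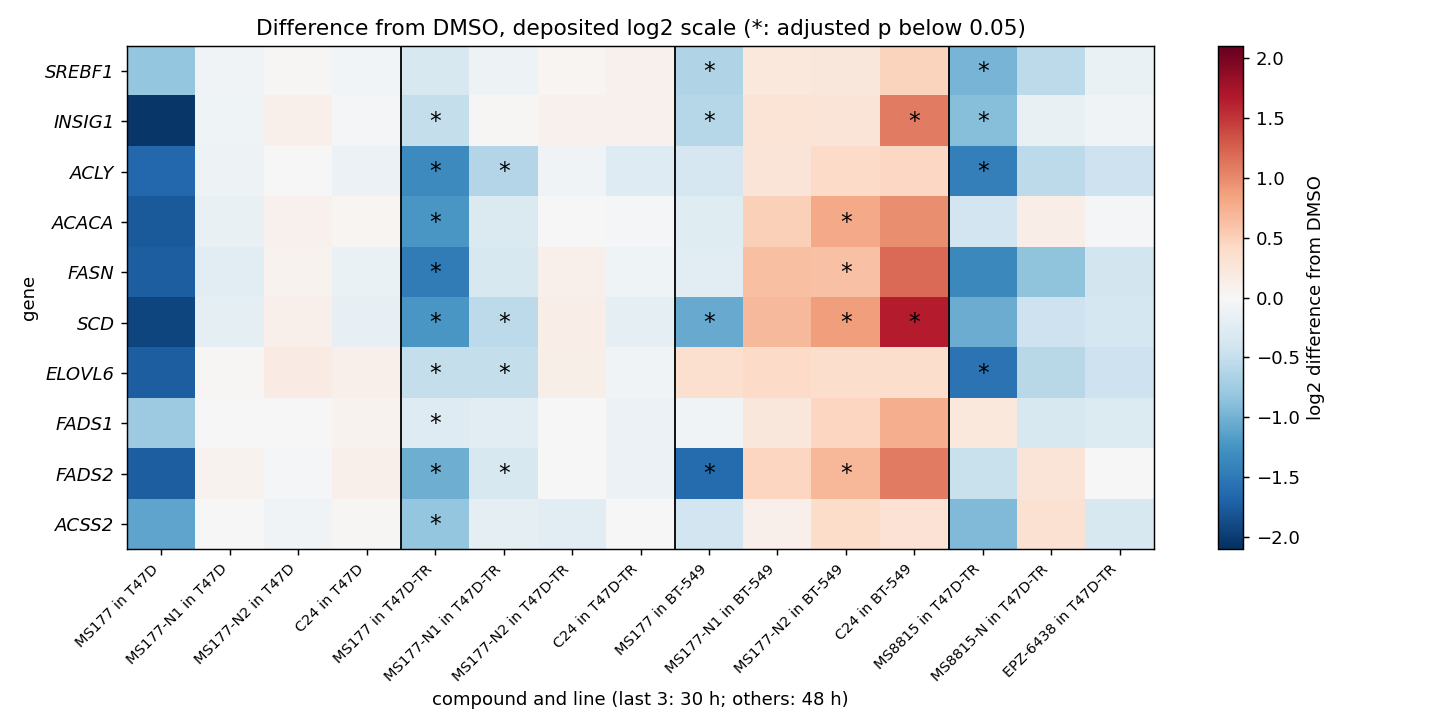
Log2 difference from DMSO of the 10 genes (rows) in the 15 tables (columns), with blue for lower, red for higher and a star where the limma adjusted p was below 0.05. The tables compress differences to a different extent, and within a table low levels more than high ones. Shades therefore do not rank folds, even within a column. With MS177 in T47D-TR, FADS2 was 4.31-fold lower at -1.02 and FASN 2.83-fold lower at -1.47. The darkest blue is INSIG1 with MS177 in T47D at -2.04 and the darkest red SCD with C24 in BT-549 at 1.64.

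In BT-549, MS177 lowered 4 of the 10 genes: SREBF1, INSIG1, SCD and FADS2. Of the 14474 genes tested 14.4% were called lower. FADS2 had 14215 and 13667 normalized counts with DMSO and 4672 and 4288 with MS177, 3.11-fold lower (log2 difference -1.62 ± 0.11 (SE), limma adjusted p = 0.00172). SCD had 14820.1 and 15832 against 8157 and 6546, 2.08-fold lower (log2 difference -1.06 ± 0.15 (SE), limma adjusted p = 0.00874). The regulators fell by smaller factors: SREBF1 from 10148 and 9216 to 6256 and 6184, 1.56-fold (adjusted p = 0.0154, limma), and INSIG1 from 2598 and 2378 to 1591 and 1626, 1.55-fold (adjusted p = 0.0166, limma). ACSS2 was just short of the threshold, with 434 and 499 against 319.7 and 339 (adjusted p = 0.0537, limma). The central enzymes did not pass, and for FASN and ACACA the groups overlapped. FASN had 12173 and 16124 with DMSO and 13539 and 10363 with MS177 (adjusted p = 0.421, limma), ACACA 3578 and 5013 and 4428 and 2829.8, and ACLY 13706 and 16439 and 12952 and 10556. FADS1 also overlapped, at 4088 and 4436 and 4211 and 3908. ELOVL6 alone had both MS177 libraries above DMSO, 1012 and 809 against 648 and 742 (adjusted p = 0.141, limma). Without DMSO replicate 1, 2 of the 10 were called. Summed mesenchymal markers were 177513 to 180998 with DMSO and 146980 to 163323 with MS177, and luminal ones (9 of 12 listed) 27127 to 29814 and 37337 to 43927; their part was not tested.

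C24 in BT-549 had the opposite sign. All 10 genes had both C24 libraries above both DMSO libraries. How often all genes were so separated was not counted. All 10 also had an unadjusted p under 0.05, as did 973 of the 13394 genes tested in the higher direction. The threshold was passed by 2, SCD and INSIG1, where 0.119% of genes were called higher. SCD went from 14820.1 and 15832 to 55518 and 41799, 3.17-fold higher (log2 difference 1.64 ± 0.17 (SE), limma adjusted p = 0.00997). INSIG1 went from 2598 and 2378 to 5424 and 5613, 2.22-fold higher (log2 difference 1.10 ± 0.12 (SE), limma adjusted p = 0.0121). FASN had 36272 and 28462, 2.29 times its DMSO mean (adjusted p = 0.0656, limma), FADS2 34094 and 26067, 2.16 times (adjusted p = 0.0578, limma), and ACACA 9909 and 7268 (adjusted p = 0.142, limma). SREBF1 had 14644 and 12446, FADS1 8122 and 6652, ACLY 23796 and 17546, ELOVL6 986 and 896 and ACSS2 639.6 and 575. The count of 2 rose without DMSO replicate 1, DMSO replicate 2 or C24 replicate 2, each of which leaves a lone library in its group. It did not fall without any library.

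The negative control MS177-N2 in BT-549 also raised 4 of the 10, with 2.05% of genes called higher. SCD was at 32059 and 24935, 1.86-fold over DMSO (log2 difference 0.88 ± 0.16 (SE), limma adjusted p = 0.00432). ACACA was 1.75-fold higher at 8530.4 and 6499 (adjusted p = 0.0151, limma), FADS2 1.62-fold at 21779 and 23413 (adjusted p = 0.0137, limma) and FASN 1.53-fold at 21902 and 21298 (adjusted p = 0.0396, limma). All 10 had both libraries above DMSO, and how often all genes did was not counted. The count was 0 when all BT-549 libraries shared 1 estimate of the spread, 1 without DMSO replicate 1, 0 without MS177-N2 replicate 1 and 2 without MS177-N2 replicate 2. With MS177-N1, all 10 means were above DMSO and 5 had an unadjusted p under 0.05, as did 149 of 13934 genes in the higher direction. None of the 10 passed (0% of genes did). SCD was at 23204 and 26351 there (adjusted p = 0.895, limma). The 4 comparisons in BT-549 share their DMSO libraries, so their signs are not independent of each other.

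**Figure D3:**
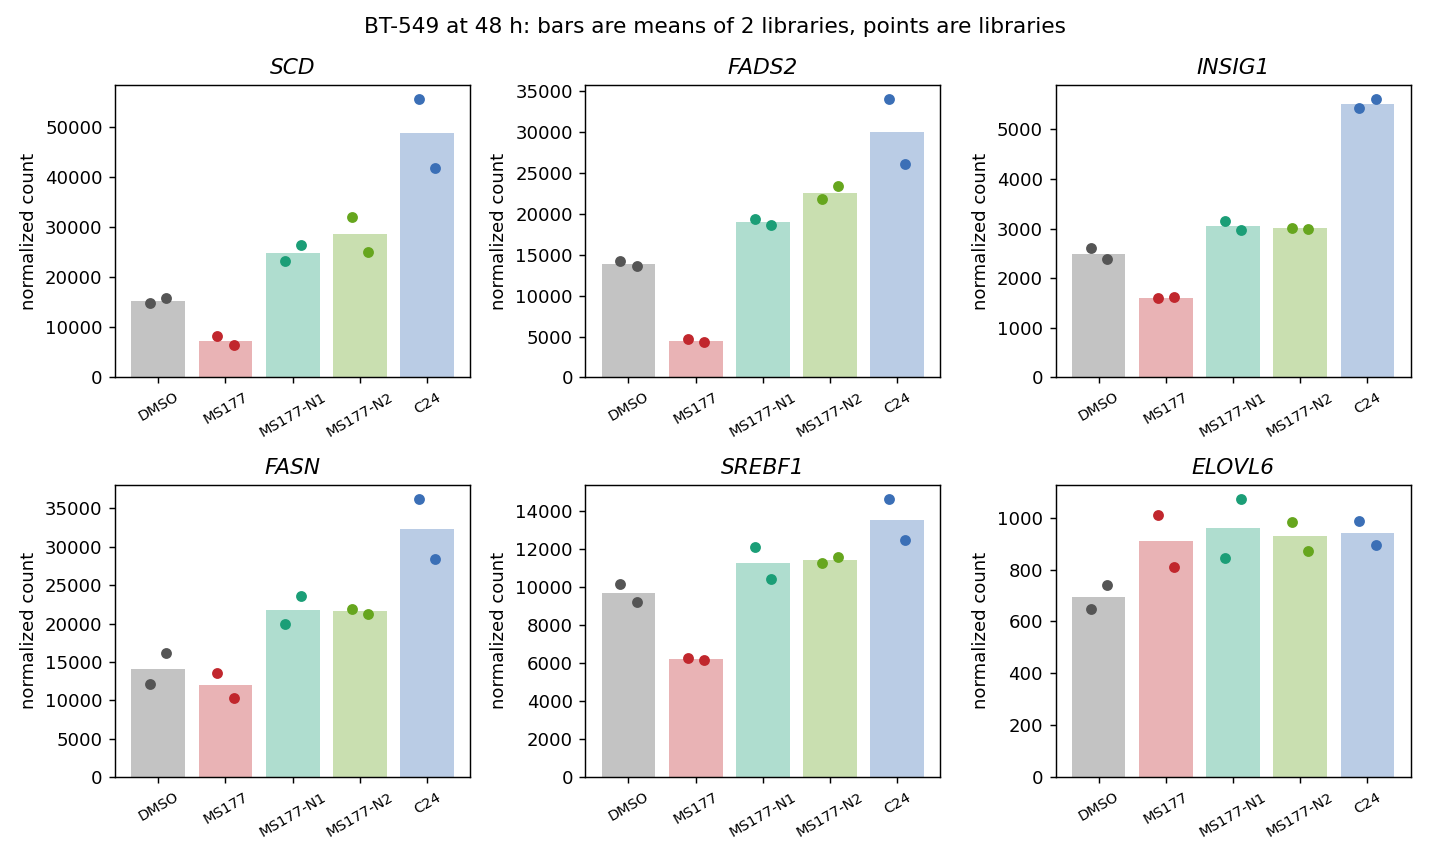
Normalized counts of 6 of the 10 genes in BT-549 at 48 h; bars are means of 2 libraries and points the libraries, from an axis that starts at 0. SCD ranges from 7352 with MS177 to 48659 with C24, and of the 6 genes only ELOVL6 has both MS177 points above both DMSO points.

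In T47D, MS177-N1, MS177-N2 and C24 left the 10 genes near DMSO: 0 were called with any of them by limma, at 0, 1 and 1 of 10 with an unadjusted p under 0.05, and the means were between 0.848 and 1.19 times DMSO. The shares of all genes called were 0.179%, 0% and 0.847%. An unadjusted p under 0.05 was reached by 334 of 11716, 522 of 10432 and 1552 of 11803 genes. The counts of 0 with MS177-N2 and with C24 were not kept without 1 or the other DMSO library, which leaves a lone DMSO library.

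In T47D-TR, MS177-N1 lowered 4 of the 10, ACLY, SCD, ELOVL6 and FADS2, where 12.6% of genes were called lower. ELOVL6 was at 697 and 555, 1.59-fold under DMSO (log2 difference -0.50 ± 0.13 (SE), limma adjusted p = 0.0181), about where it was with MS177. ACLY was at 6458 and 5328, 1.55-fold lower (adjusted p = 0.0149, limma), SCD at 15529.9 and 13822, 1.48-fold (adjusted p = 0.0266, limma), and FADS2 at 377 and 374, 1.44-fold (adjusted p = 0.0403, limma). INSIG1 was level with DMSO at 592 and 554, and SREBF1 overlapped it at 2410.0 and 3363. These calls were not firm: 0 of the 10 passed when all libraries of the line and time shared 1 spread, 0 without DMSO replicate 2 or without MS177-N1 replicate 2, and 2 without MS177-N1 replicate 1. With MS177-N2 and with C24, 0 of the 10 passed in T47D-TR by limma (0 for both at an unadjusted p under 0.05), and 0.175% and 0.00851% of genes were called. SCD was at 22979.7 and 24986 with MS177-N2 and at 21701 and 16725 with C24.

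Set directly against the other compounds at the same dose and time, MS177 gave the lower level of most of the 10 genes in every line. In T47D-TR, the levels with MS177 were the lower ones for 7 of the 10 against MS177-N1, for 8 against MS177-N2 and for 8 against C24, where 26.8%, 24.5% and 25.8% of 15025 genes were. FADS2 was 4.35-fold lower than with MS177-N2 (log2 difference -2.11 ± 0.18 (SE), limma adjusted p = 2.27e-05) and 3.89-fold lower than with C24. FASN was 2.25-fold lower than with MS177-N1 (log2 difference -1.18 ± 0.17 (SE), limma adjusted p = 0.000399) and 3.04-fold lower than with MS177-N2. ELOVL6 did not differ from MS177-N1 beyond the spread (95% interval -0.45 to 0.32 on the log2 scale), and the intervals of SREBF1 against MS177-N1 (-0.70 to 0.17) and of FADS1 (-0.70 to 0.45) also included 0. SREBF1 and FADS1 did not pass against MS177-N2 and C24 either.

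In BT-549, MS177 was below MS177-N1 for 7 of the 10, below MS177-N2 for 9 and below C24 for 9, against 17.7%, 19.4% and 18.9% of 16345 genes. SCD had a mean of 7352 with MS177 and 48659 with C24, 6.62-fold apart (log2 difference -2.72 ± 0.18 (SE), limma adjusted p = 1.12e-05). FADS2 was 6.71-fold lower than with C24 (log2 difference -2.74 ± 0.14 (SE), limma adjusted p = 2.66e-06) and 4.24-fold lower than with MS177-N1. FASN, not called against DMSO, was 2.71-fold lower than with C24 (adjusted p = 0.000511, limma). ACACA and FADS1 did not pass against MS177-N1. ELOVL6 passed in none of the 3, with intervals of -0.44 to 0.30, -0.40 to 0.34 and -0.43 to 0.32.

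In T47D, 6 of the 10 were lower than in the single library given MS177-N1, which is assumed to vary like the other groups, 9 than with MS177-N2 and 9 than with C24, against 5%, 9.09% and 11% of 17341 genes. INSIG1 was 4.7-fold lower than with MS177-N2 (log2 difference -2.23 ± 0.15 (SE), limma adjusted p = 0.00141), and FADS2 3.83-fold lower than with C24 (log2 difference -1.95 ± 0.18 (SE), limma adjusted p = 0.00276). ACLY passed in none of the 3, and against MS177-N1 neither did ACACA, FASN or SCD. These counts rest on a spread shared by all libraries of the line: with the compared libraries only, 0 passed in each of the 3, and without MS177-N2 replicate 1 or replicate 2, or without C24 replicate 1 or replicate 2, 1 passed.

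**Figure D4:**
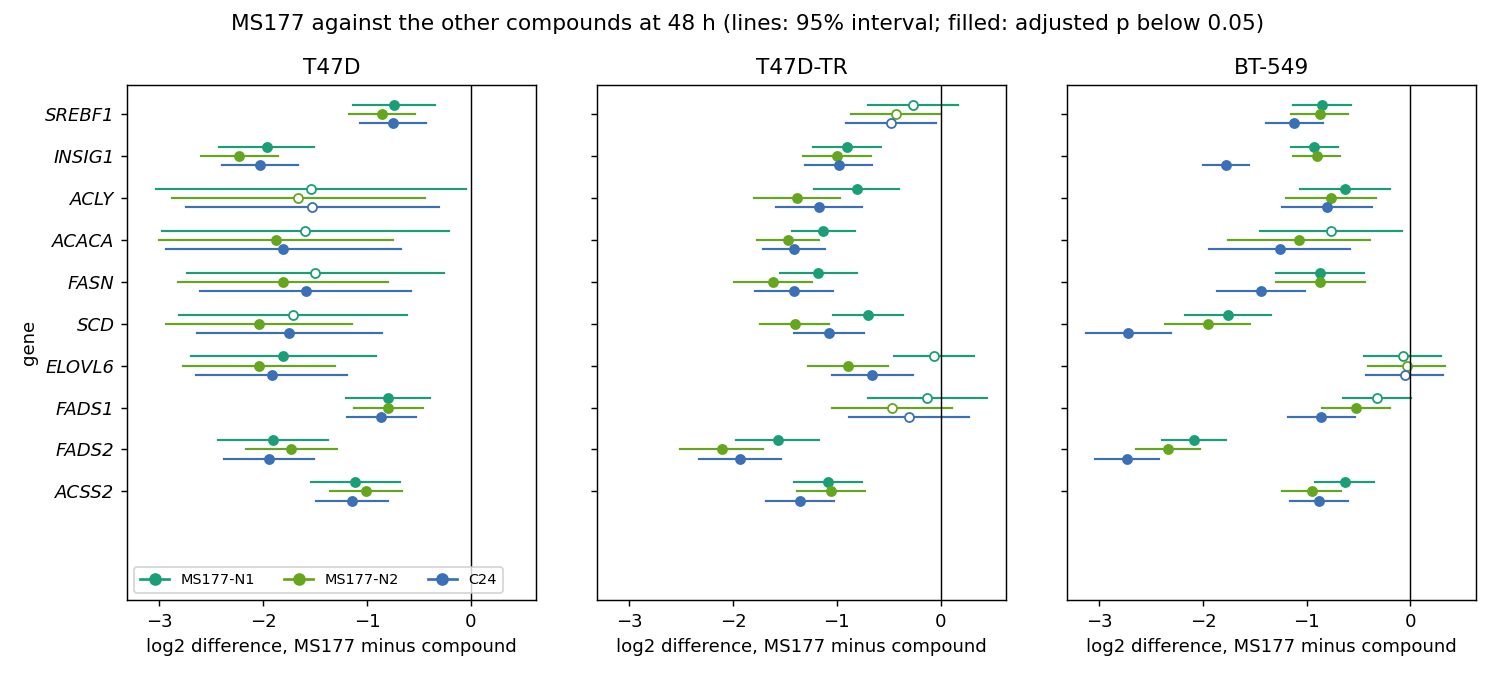
Log2 difference of MS177 minus MS177-N1, MS177-N2 or C24 for each gene in the 3 lines at 48 h; points are estimates, lines 95% intervals, and filled points have a limma adjusted p below 0.05. Intervals in T47D are wide for ACLY, ACACA and FASN, and the points of ELOVL6 in BT-549 lie near 0.

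Among MS177-N1, MS177-N2 and C24 few members differed, in 9 comparisons chosen after the values were seen. In T47D-TR, SCD and ELOVL6 were higher with MS177-N2 than with MS177-N1, where 4.51% of genes were. ELOVL6 was 1.77-fold higher (log2 difference 0.83 ± 0.17 (SE), limma adjusted p = 0.0448) and SCD 1.63-fold (log2 difference 0.71 ± 0.15 (SE), limma adjusted p = 0.0448). Without either library of MS177-N1 or of MS177-N2, 0 passed. In BT-549, INSIG1 was 1.83-fold higher with C24 than with MS177-N2 (log2 difference 0.88 ± 0.10 (SE), limma adjusted p = 0.00415), where 0.557% of genes were. It did not pass without C24 replicate 2, MS177-N2 replicate 1 or MS177-N2 replicate 2. SCD, with 48659 against 28497 on average, did not pass after adjustment (95% interval 0.36 to 1.18, adjusted p = 0.119, limma). In the other 7 comparisons 0 members passed by limma. These were first the 3 pairs in T47D, where 0 members had an unadjusted p under 0.05 and 0% of genes were called. C24 against MS177-N1 and MS177-N2 in T47D-TR had 2 and 0 members at that unadjusted p, with 0.0466% and 0.2% of genes called. Of all 15025 genes there, 2949 and 1107 reached that unadjusted p. C24 and MS177-N2 against MS177-N1 in BT-549 had 5 and 1 members at it, with 0.00612% and 0.349% of genes called. Of all 16345 genes there, 562 and 1133 reached it. For C24 against MS177-N1 in T47D-TR the count of 0 was not kept without C24 replicate 2, which leaves a lone C24 library.

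At 30 h in T47D-TR, MS8815 lowered 4 of the 10, SREBF1, INSIG1, ACLY and ELOVL6, where 2.98% of 12067 genes were called lower. ELOVL6 went from 419 and 543 with DMSO to 142 and 86.0, 4.23-fold lower (log2 difference -1.56 ± 0.24 (SE), limma adjusted p = 0.0415). ACLY went from 4954 and 5163 to 1944 and 1709, 2.77-fold lower (log2 difference -1.43 ± 0.20 (SE), limma adjusted p = 0.0378). INSIG1 had 394 and 366 against 169 and 165, and SREBF1 1706 and 1734 against 818 and 838 (2.08-fold lower; adjusted p = 0.0494, limma). FASN (14919 and 17092 against 5293 and 7237), SCD (13487 and 14615 against 6387 and 7128) and ACSS2 (642 and 626 against 243 and 352) had both libraries below DMSO and just missed the threshold (adjusted p = 0.0559, 0.061 and 0.0697, limma). FADS2 had 339 and 291 against 179 and 232 and ACACA 1382 and 1313 against 1054 and 944. FADS1 was discordant, 247 and 563 with MS8815 around DMSO values of 313 and 312. The count of 4 was not kept without DMSO replicate 3 or 4, or without MS8815 replicate 1 or 2, in fits where the remaining pair alone sets the spread. It was 2 on log2(normalized count + 1), 1 without the filter on low values and 0 when all 30 h libraries shared 1 spread.

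With MS8815-N and EPZ-6438, 0 of the 10 passed against DMSO by limma (1 and 0 at an unadjusted p under 0.05), and 0% of genes did in both. That unadjusted p was reached by 289 of 10169 and 157 of 12673 genes. The MS8815-N table had a median difference of -0.11 over all genes tested. FASN was at 9028 and 8569.5 with MS8815-N, and the libraries of EPZ-6438 disagreed, at 16069 and 9304. ACSS2 depended on 1 library of MS8815-N, at 444 and 1537: with both the difference was 0.33, and without replicate 2 it was -0.35. Without MS8815-N replicate 1 or replicate 2, or without EPZ-6438 replicate 1, the count of 0 was not kept. The DMSO pair alone sets the spread of the lone library there. MS8815 did not differ from its negative control or from EPZ-6438 for any of the 10 by limma (adjusted p from 0.315 up), at 4 and 5 with an unadjusted p under 0.05, where 0.0574% and 0.108% of 13929 genes passed. Of all genes, 1863 and 1154 had an unadjusted p under 0.05. The intervals were wide. For ELOVL6 against EPZ-6438 it ran from -2.72 to -0.49, and for FASN against MS8815-N from -1.33 to 0.32, while the median of all genes against MS8815-N was itself 0.51. The count of 0 against MS8815-N was not kept without MS8815-N replicate 1, which leaves a lone library of that compound. EPZ-6438 against MS8815-N, a pair added after the values were seen, had 0 members past the threshold by limma (0 at an unadjusted p under 0.05, 0% of genes). That count too was not kept without MS8815-N replicate 1. The summed luminal markers were 209605 to 226381 with DMSO and 134057 to 151147 with MS8815, with a median difference of -0.82 over 11 tested markers, 1 of them called lower. The mesenchymal sum (9 of 12 listed, 1 of them at 0 with DMSO) was 269 to 277 with DMSO and 554 to 909 with MS8815. The part of either list in the result was not tested. MS177 at 48 h and MS8815 at 30 h were given for different times and with different vehicles and are set side by side only: FASN was 2.83-fold under its DMSO with MS177 and 2.56-fold with MS8815, and FADS2 4.31-fold and 1.53-fold.

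Whether the responses differed between the lines was tested by comparing the log2(normalized count + 1) difference from DMSO of 1 line with that of another, for each compound given at 48 h. By this test the INSIG1 response to MS177 was lower in T47D (4.25-fold under DMSO) than in BT-549 (1.55-fold) and T47D-TR (1.82-fold). Against DMSO within T47D, INSIG1 did not pass (adjusted p = 0.131, limma). ELOVL6 also responded differently in T47D and BT-549, and ACSS2 in T47D-TR and BT-549. So 1 of the 10 was lower for T47D-TR minus BT-549, 2 for T47D minus BT-549, and 1 was higher for T47D-TR minus T47D, where 8.22%, 2.85% and 1.39% of 11685 genes were called in that direction. With a replicate block 0 members passed in each of these MS177 comparisons. The calls also depended on single libraries (below). For MS177-N1, 5 of the 10 (ACLY, FASN, SCD, ELOVL6, FADS2) were lower for T47D-TR minus BT-549, with 6.81% of 11666 genes called lower, and for C24 only SCD was, with 0.0343% of 11652. In the other 7 line comparisons of these 3 compounds 0 members passed by limma. For MS177-N1 (T47D minus BT-549, T47D-TR minus T47D), 2 and 2 members had an unadjusted p under 0.05, as did 79 and 2124 of 11666 genes. For MS177-N2 (T47D-TR minus BT-549, T47D minus BT-549, T47D-TR minus T47D) it was 7, 7 and 0 members and 1398, 858 and 435 of 11638 genes. For C24, in the same order as MS177-N1, it was 7 and 0 members and 351 and 442 of 11652 genes. The shares of genes called in either direction there were 0% and 0.0686% for MS177-N1 (T47D minus BT-549, T47D-TR minus T47D), 0.189%, 0.0773% and 0.0516% for MS177-N2 (T47D-TR minus BT-549, T47D minus BT-549, T47D-TR minus T47D), and 0.00858% and 0.0172% for C24 in the same order as MS177-N1. Line differences of a compound share a DMSO pair with those of the other compounds.

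Beyond the 10 genes, the neighbouring lipid lists were counted in the same fits, with no test of a list. The list nearest to them was cholesterol synthesis and uptake, the genes usually tied to SREBF2. With MS177 in T47D-TR, 18 of its 23 tested genes were lower and 2 higher, against 31.4% and 31.1% of all genes, with a median of -0.68. ACAT2, a cytosolic acetyl-CoA acetyltransferase, was 5.62-fold lower and LSS, which closes the sterol rings, 3.19-fold. In BT-549, 12 of 24 were lower and 0 higher, against 14.4% and 12.9% of all genes (median -0.49), among them ACAT2, 1.97-fold. In T47D, 0 of 23 were called and the median was -0.96. C24 in BT-549 raised 7 of 24, against 0.119% of all genes (median 0.64) and lowered 0, and MS177-N2 raised 3, against 2.05%. MS8815 lowered 4 of 23, against 2.98% (median -0.38).

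The counts of the other lists with MS177 are read against the same shares of all genes, 31.4% lower and 31.1% higher in T47D-TR and 14.4% and 12.9% in BT-549, and several were near them. Of the SREBP processing genes and nuclear partners in T47D-TR, 7 of 16 were lower and 3 higher. SREBF2, the sister gene of SREBF1, was 2.61-fold lower and MBTPS1, a protease that cuts SREBPs, 2.26-fold lower, whereas PPARG was 4.62-fold higher. In BT-549, 2 of 17 were lower and 2 higher, also near the shares of all genes, with RXRA, the partner of several lipid-sensing nuclear receptors, 2.78-fold lower. Of the other fatty acid chain enzymes, 5 of 18 were lower and 5 higher in T47D-TR, shares near those of all genes. The elongation enzyme TECR was 4.81-fold lower there, and MID1IP1, which activates acetyl-CoA carboxylase, was 2.07-fold higher in T47D-TR and 2.29-fold higher in BT-549. In BT-549, 6 of 20 of this list were lower and 2 higher, including SCD5, a second stearoyl-CoA desaturase gene, 1.9-fold lower.

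Against the same shares (31.4% lower and 31.1% higher in T47D-TR, 14.4% and 12.9% in BT-549), genes that supply carbon and NADPH were lower in 10 of 18 and higher in 2 in T47D-TR, and lower in 5 of 20 and higher in 1 in BT-549. IDH2, a mitochondrial isocitrate dehydrogenase, was 2.73-fold and 1.91-fold lower in the T47D-TR and BT-549 lines. Acyl-CoA and glycerolipid genes were near the shares of all genes in T47D-TR (6 of 21 lower, 7 higher), and in BT-549 6 of 27 were lower and 1 higher, where LPCAT3, which puts polyunsaturated chains into phospholipids, was 2.67-fold lower. Of the uptake, storage and lipolysis genes, 5 of 13 were lower and 6 higher in T47D-TR. CD36, a fatty acid importer, was 6.17-fold lower and MGLL, a monoglyceride lipase, 6.54-fold higher. In BT-549, 6 of 17 were lower and 3 higher, with LIPE, the hormone-sensitive lipase, 4.13-fold lower. Mitochondrial oxidation genes were lower in 8 of 20 and higher in 2 in T47D-TR, led by HADH (4.92-fold lower), and lower in 3 of 24, near the share of all genes, and higher in 1 in BT-549. In T47D, 0 genes of these 6 lists were called by limma.

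**Figure D5:**
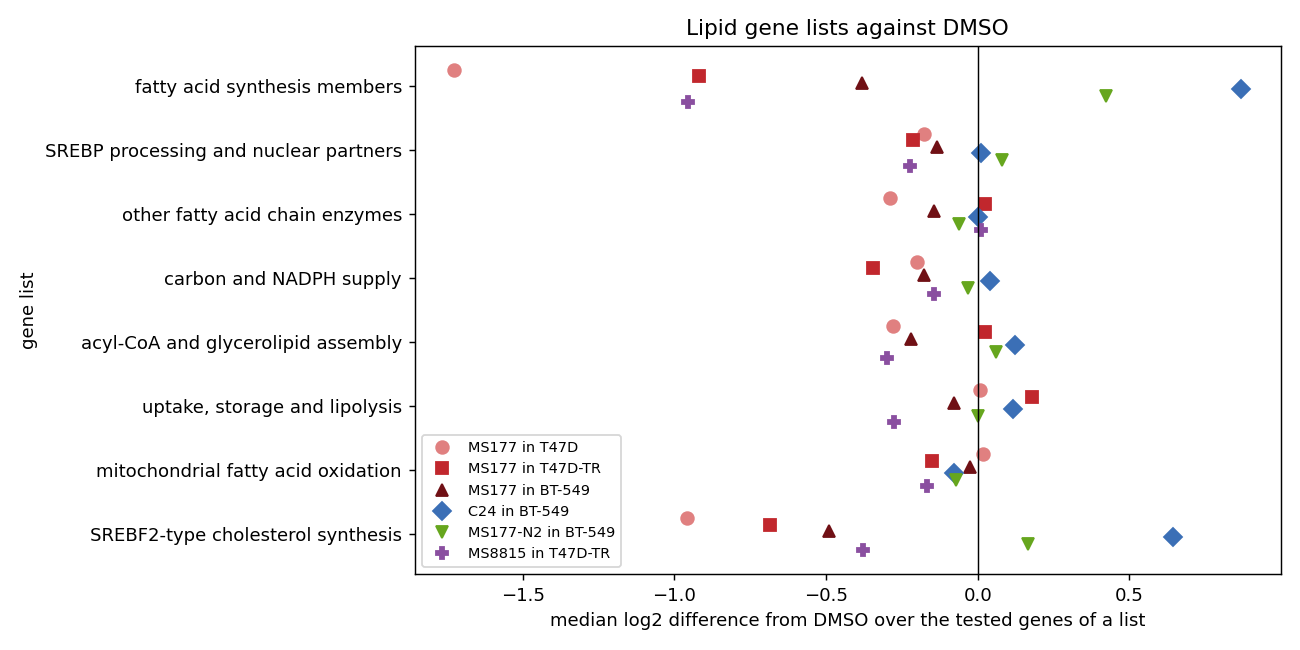
Median log2 difference from DMSO over the tested genes of each lipid list (rows) in 6 comparisons (symbols), with the 10 genes in the top row. Tables compress differences differently, and within a table low levels more than high ones. The medians thus depend in part on how abundant the genes of a list are, also within a symbol. In all 6 comparisons the top row and the cholesterol row lie farthest from 0. With MS8815 the cholesterol row (-0.38) is close to the acyl-CoA and glycerolipid row (-0.30).

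Across the 37 libraries, each line and time centred on its own mean, the 10 genes moved together to different degrees. Pearson correlations between pairs of members ranged from 0.33 (FADS1 with ACSS2) to 0.944 (ACLY with FASN), and SCD with FASN had 0.925. Among 8544 genes tested in every table, those most like FASN included SREBF2 (0.961), ACLY (0.944), LIPA (0.941) and CLSTN1 (0.931). Those most like SCD included DHCR7 (0.96), SREBF2 (0.926), FASN (0.925) and FADS2 (0.914). SREBF1 itself was closest to none of the enzymes but to CDC25B (0.87), GFRA1 (0.868), SEMA3F (0.864), STARD13 (0.859) and ALAD (0.856). The libraries share treatments and controls, so these values are a description.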

How the data were processed

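Poly(A) RNA of 38 cell line samples was sequenced. Per the submitters' processing notes, RSEM and DESeq were used with hg38; versions are not given in the sources used here. The 15 deposited tables hold log2 values that the authors made separately for each compound and its DMSO libraries. The authors' names for the T47D-TR tables mark them as variance-stabilized data; for the T47D and BT-549 tables the same transform was read from the values. Normalized counts were computed by undoing it. In T47D and BT-549 these gave whole reads for 100% of the low values (within 0.05 of a whole number, up to 1000 reads). In T47D-TR 8.55 to 16.8% came out whole, so depth is unknown and the size-factor scaling there is an assumption. Tables of 1 line and time were set on 1 scale by a factor from their shared DMSO libraries, and in T47D-TR also gene by gene. One column, which holds another compound's library, was not used, which left 37 libraries.

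Each compound was tested against DMSO with limma 3.58.1 (R 4.3.3, statmod 1.5.0; mean trend, robust) on the deposited log2 values of genes that exceeded the lowest value of their table by more than 1 unit in 2 or more libraries. Between compounds (21 pairs, of which 10 were added after the values were seen) and between lines (12 comparisons, 3 of them planned), log2(normalized count + 1) was fitted over all libraries of a line and time, or of the lines and compound compared, with at least 10 normalized counts in 2 libraries. The folds are ratios of mean normalized counts. The p-values were adjusted by Benjamini and Hochberg over all genes tested, with 0.05 as threshold. Of these fits only that against DMSO was tried on simulated data, for some of the tables and with no outlying library. The fits between compounds and between lines were not. The members and lists were chosen with earlier results of these data known. All 10 members are named; of other lists, at most the 3 largest differences past the threshold with MS177 in T47D-TR and in BT-549, or for T47D the 3 largest of any, and the 5 genes most like SREBF1, FASN and SCD. Some named genes are not reported here. Alternatives were other scales, filters, scalings and fits, a replicate block and leaving out each library.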

Additional observations from a re-analysis of the deposited data

Results flagged for a closer look

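In 10 cases a gene's response to a compound differed between 2 lines by a test of the difference itself, given here as the log2(normalized count + 1) response in the line named before minus that in the line named after. With MS177, INSIG1, the brake on SREBP processing, had a T47D response below that of BT-549 by a difference of -1.46 ± 0.22 (SE), limma adjusted p = 0.00812, and a T47D-TR response above that of T47D by 1.23 ± 0.22 (SE), limma adjusted p = 0.0244. The elongase ELOVL6 was 3.28-fold under DMSO in T47D and at 1.31 times DMSO in BT-549, a T47D minus BT-549 difference of -2.17 ± 0.40 (SE), limma adjusted p = 0.0193. ACSS2 had a T47D-TR minus BT-549 difference of -0.87 ± 0.23 (SE), limma adjusted p = 0.0387.

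These MS177 calls depended on single libraries. The ACSS2 call was kept without MS177 replicate 1 of T47D-TR and lost without each of the other 7 libraries. For T47D minus BT-549, 8 members passed without T47D MS177 replicate 2, 3 without its replicate 1, 0 without DMSO replicate 2 of T47D or of BT-549, and 1 without each of the other 4. For T47D-TR minus T47D, 6 passed without T47D MS177 replicate 2, 1 without its replicate 1 and 0 without each of the other 6.

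The negative control MS177-N1 had 5 such differences, all with T47D-TR below DMSO and BT-549 above it, in T47D-TR minus BT-549 comparisons added after the values were seen. SCD differed by -1.25 ± 0.16 (SE), limma adjusted p = 0.0209, ELOVL6 by -1.13 ± 0.25 (SE), limma adjusted p = 0.0308 and FADS2 by -0.97 ± 0.15 (SE), limma adjusted p = 0.0289. ACLY differed by -0.91 ± 0.24 (SE), limma adjusted p = 0.0378, and FASN by -0.96 ± 0.23 (SE), limma adjusted p = 0.0328. The count of 5 was 7 without BT-549 MS177-N1 replicate 1, 1 without T47D-TR MS177-N1 replicate 2, 0 without T47D-TR DMSO replicate 2, BT-549 DMSO replicate 1 or BT-549 MS177-N1 replicate 2, and 5 without each of the other 3. With C24, SCD was at 0.887 times DMSO in T47D-TR and at 3.17 times DMSO in BT-549, a T47D-TR minus BT-549 difference of -1.84 ± 0.22 (SE), limma adjusted p = 0.0336. For C24 the count was 7 without T47D-TR C24 replicate 1, 2 without its replicate 2, 1 without BT-549 C24 replicate 2 and 0 without each of the other 5.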

How the results depend on the processing

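Counts below are of the 10 members called: the count under the alternative comes first and the reported count follows in parentheses. Fitting all libraries of the line and time together gave 9 for MS177 in T47D against DMSO (reported 0), and 0 for MS177-N1 in T47D-TR (4), MS177-N2 in BT-549 (4) and MS8815 (4). For MS8815, log2(normalized count + 1) gave 2 and no filter 1. For C24 in BT-549 (2), quantile scaling and limma voom on recovered reads each gave 4. With the compared libraries only, MS177 in T47D gave 0 against MS177-N1 (6), MS177-N2 (9) and C24 (9). The same setting gave 1 for C24 against MS177-N1 in T47D (0), 5 for C24 against MS177-N2 in T47D (0), 5 for MS177-N2 against MS177-N1 in T47D (0) and in T47D-TR (2), and 3 for C24 against MS177-N2 in BT-549 (1). On the deposited log2 values, the MS177 line differences gave 0 for T47D-TR minus BT-549 (1) and 4 for T47D minus BT-549 (2). The cause of these changes was not tested.

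Same-numbered libraries showed no steady pairing (correlations of their deviations from -0.725 to 0.734 over 11 tables), so the replicate numbers were not taken as pairs. With a replicate block the counts were 4 for MS177 in T47D (0), 2 for MS177-N1 in T47D-TR (4), 2 for MS177 in BT-549 (4), 9 for MS177-N1 in BT-549 (0), 2 for MS177-N2 in BT-549 (4), 6 for C24 in BT-549 (2), 2 for MS177 against MS177-N1 in T47D (6), and 0 for each of the 3 MS177 line differences (1, 2 and 1). With the crossed replicate block, added after seeing the data, they were 7 for MS177 in T47D, 9 for MS177 in BT-549, 10 for MS177-N2 in BT-549 and 10 for C24 in BT-549. At 30 h DMSO and treated libraries share no replicate numbers.

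Without each library in turn, counts against DMSO ran from 0 to 10 for MS177 in T47D, 0 to 2 for MS177-N2 and 0 to 3 for C24 in T47D, 8 to 9 for MS177 and 0 to 3 for MS177-N1 in T47D-TR, 2 to 5 for MS177, 0 to 4 for MS177-N2 and 2 to 6 for C24 in BT-549, 0 to 9 for MS8815 and for MS8815-N, and 0 to 6 for EPZ-6438. Between compounds they were 10 for MS177 against MS177-N1 (1 library against 1, so no support for the difference), 1 to 10 against MS177-N2 and 1 to 10 against C24 in T47D. They were 7, 8 and 7 to 9 in T47D-TR, and 5 to 9, 6 to 9 and 7 to 9 in BT-549. They ran from 0 to 3 for MS8815 against MS8815-N and for C24 against MS177-N1 in T47D-TR, stayed at 0 for MS177-N2 against MS177-N1 in T47D-TR, and ran from 0 to 1 for C24 against MS177-N2 in BT-549 and 0 to 2 for EPZ-6438 against MS8815-N. For the line differences they ran from 0 to 1, 0 to 8 and 0 to 6 for MS177 (T47D-TR minus BT-549, T47D minus BT-549, T47D-TR minus T47D), 0 to 7 for MS177-N1 and for C24 in T47D-TR minus BT-549, and 0 to 1 for MS177-N2 in T47D-TR minus BT-549 and C24 in T47D minus BT-549. ACSS2 with MS8815-N changed sign without MS8815-N replicate 2, from 0.33 to -0.35, and was 1.01 without MS8815-N replicate 1.

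Over all genes, the numbers called moved by more than 1.5 times under some setting in most comparisons: for MS177 in T47D from 0 to as many as 12368 (without MS177 replicate 2), in BT-549 from 3953 to 9663 (crossed replicate block), and for MS8815 from 754 to between 11 (all libraries fitted together) and 6988 (without MS8815 replicate 2). In T47D-TR with MS177 they lay between 4779 and 8143 (reported 6516). In T47D-TR depth is unknown, so no limit from depth can be given there, and 2 libraries a group limit the precision of every difference.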
